A study of Mus musculus with 4 samples.

Results

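The cells described here come from the mouse heart and were selected as coronary endothelium, although 17 adult cells carried markers of another cell type, as given below. In the selected cells a set of 5 genes, Kcne3, Apln, Tmem255a, Pcdh17 and Ptp4a3, had more UMIs (counted RNA molecules) than any of 3 competing sets. A cell was selected when it had at least 1 UMI of Fabp4, Cldn5 or Aplnr together (genes of coronary vessels), no UMI of the endocardial genes Npr3 and Tmem108, and at least 2 UMIs of the 5 genes. The sum of the 5 also had to exceed that of a capillary set (Timp4, Car4, Rgcc, C1qtnf9), of an artery set (Cxcl12, Glul, Alpl, Nebl, Stmn2) and of a large artery set (Fbln5, Eln, Gkn3, Clu). The rule was met by 1567 of 21920 cells. They were 55 of 5732 cells of E12 hearts, 366 of 6062 from E15, 1044 of 5884 from P2 and 102 of 4242 adult cells. Because the data bear out the label of angiogenic capillary cells unevenly between stages, as given below, they are called Kcne3/Apln-set cells, after the set and not because each holds these 2 genes, which gave fewer of the set's UMIs than Ptp4a3 from E15 on. They were compared, within each library, with the other gated cells, which had at least 2 UMIs of Fabp4, Cldn5 and Aplnr, none of Npr3 and Tmem108, and were not selected. The other gated cells numbered 75, 807, 2663 and 3891 in the same order of stages.

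The study profiled sorted CD31+/CD45- cardiac cells of wild-type C57Bl6J mice by droplet sequencing of RNA 3′ ends. Hearts were pooled from 37 animals at embryonic day 12, 48 at embryonic day 15, 21 at postnatal day 2 and 6 adults of 8 weeks, and the sorted cells were frozen and thawed before loading. Handling after thawing differed, with a kit against dead cells for the embryonic stages and a renewed live-cell sort for P2 and the adult. There was 1 library per stage, so stage, library and handling cannot be told apart. No test between stages or groups of cells could be made, and no p-value is given. Intervals are exact, at 95%, and cover counting error only. In the order E12, E15, P2, adult, which holds wherever 4 values are given in a row, the called cells had 8122358, 7079759, 29645059 and 7650091 UMIs in total and a median of 1241, 1013, 4531.5 and 1510 UMIs each.

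New vessels grow by sprouting. A leading tip cell senses VEGF, restrains its neighbours through the Notch ligand Dll4, and draws out a stalk of dividing cells behind it. Apelin, encoded by Apln, is a peptide that sprouting endothelium secretes and that acts through the receptor Aplnr on endothelial cells, while a resting heart capillary takes up fatty acids through carriers such as Cd36, Gpihbp1 and Fabp4. In the embryo the coronary vessels start as an unperfused plexus, part of which later becomes artery.

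Before any comparison the selected cells were checked against their label. Pan-endothelial markers (Pecam1, Cdh5, Tie1, Egfl7, Kdr, Esam, Emcn, Cd93) summed to 2224, 3368, 4908 and 4914 CPM (counts of a gene scaled by the cells' total UMIs) in them, and to 2426, 3222, 5711 and 7529 CPM in the other gated cells. In the adult, 17 of the 102 selected cells went against the label. Each held 26 to 107 UMIs (median 71) of 7 genes of mural cells, the contractile cells around vessels, where the other 85 held 0 to 3, and no Acta2. Acta2 and Rgs5 were found in 17 of these 17 cells, their pan-endothelial sum was 656 CPM, and Cdh5, the endothelial cadherin, had no UMI, against a sum of 5975 CPM in the other 85. They were selected through Ptp4a3, at 1610 CPM, since Kcne3, Apln, Tmem255a and Pcdh17 were at 0 in them. With them the 10 mural markers stood at 6377 CPM in the selected adult cells and 304 in the other gated cells, led by Acta2. Cells with 5 or more UMIs of the markers of any 1 other cell type (mural, fibroblast, lymphatic, erythroid, leukocyte, cardiomyocyte or platelet) were therefore left out in a second set of values, a step chosen after seeing the data. It kept 53, 358, 1015 and 85 of the selected and 62, 758, 2354 and 3766 of the other gated cells, and "kept cells" below are these. In the kept adult cells the mural markers were at 119 CPM against 107. Rgs5 made up 69.4 CPM of the 119 and was found in 2 of these cells. In the 50 kept cells without an Apln UMI Rgs5 was at 150 CPM, all from 1 cell.

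**Figure D1:**
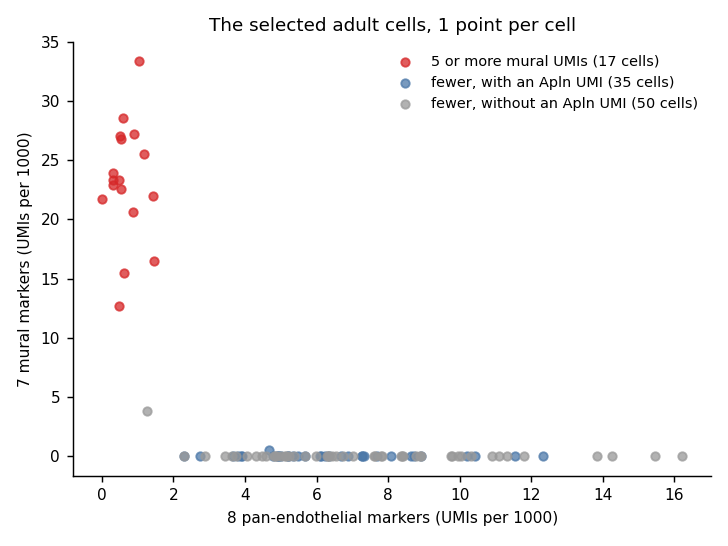
Each point is 1 of the 102 selected adult cells, with UMIs of 8 pan-endothelial markers per 1000 on the horizontal axis and of 7 mural markers per 1000 on the vertical axis. The 17 cells with 26 to 107 mural UMIs stand apart from the 85 kept cells, which hold 0 to 3 mural UMIs and, but for 1 shallow cell, lie at or near 0 on the vertical axis.

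At the other stages few selected cells carried such markers, but some sums rested on a single cell. At E15, 536 of the 585 UMIs of Hba-a1, a haemoglobin chain, came from 1 selected cell, and at P2 it was 237 of 283. The other gated cells held more lymphatic and fibroblast cells than the selected ones. At P2, 158 of 2663 other gated cells had 5 or more lymphatic UMIs and 123 had 5 or more fibroblast UMIs, against 14 and 5 of the 1044 selected. Lymphatic markers, led by Ccl21a before the adult stage, summed to 402, 138, 247 and 35.7 CPM in the selected and 835, 684, 1704 and 122 CPM in the other gated cells, and 6 of 7 compared at P2 were lower. Prox1, Pdpn, Mmrn1 and Reln had no UMI in the selected adult cells. Fibroblast markers, led by Col1a1 at E12 and E15, Postn at P2 and Col1a2 in the adult, summed to 222, 174, 46.8 and 43.6 CPM against 461, 486, 475 and 713 CPM, and 4 of 4 compared at E15 and 8 of 8 at P2 were lower. In the kept cells the lymphatic sum at P2 was 47.7 against 46.1 CPM and the fibroblast sum 33.4 against 60.8 CPM. A barcode occurred in more than 1 library 25 to 60 times for each pair of libraries.

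The 5 selecting genes lie on different chromosomes or, for Apln and Tmem255a, at distant places on X (GRCm38, GENCODE M21). Kcne3, an accessory subunit of voltage-gated potassium channels, spans chr7:100176502-100184869 on the plus strand and Apln chrX:48025146-48034853 on the minus strand. Tmem255a lies at chrX:38196573-38252439, Pcdh17, a protocadherin of cell contacts, at chr14:84443563-84539002, and Ptp4a3, a tyrosine phosphatase also known as PRL-3, at chr15:73723145-73758766. The promoters of the 2 genes that give the cells their name are shown because the selected cells also carried more RNA of hypoxia and glycolysis genes, as given below. They run from 250 bases before the start to 50 after it (RefSeq, GRCm38.p6), 5′ to 3′ on the gene's strand. Capitals mark ACGTG, the core of the hypoxia response element.
Kcne3, chr7:100176420-100176719, plus strand: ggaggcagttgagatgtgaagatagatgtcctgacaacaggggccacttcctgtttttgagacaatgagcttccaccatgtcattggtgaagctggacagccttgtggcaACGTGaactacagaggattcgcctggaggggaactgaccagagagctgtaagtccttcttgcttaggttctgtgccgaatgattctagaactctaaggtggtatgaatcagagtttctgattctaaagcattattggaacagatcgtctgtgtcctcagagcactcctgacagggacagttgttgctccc
Apln, chrX:48034804-48035103, minus strand: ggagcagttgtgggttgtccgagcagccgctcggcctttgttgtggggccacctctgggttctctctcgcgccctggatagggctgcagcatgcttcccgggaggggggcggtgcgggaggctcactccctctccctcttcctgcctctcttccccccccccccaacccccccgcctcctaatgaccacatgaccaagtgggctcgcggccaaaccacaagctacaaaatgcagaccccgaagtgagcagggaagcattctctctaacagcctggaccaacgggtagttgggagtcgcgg
On either strand ACGTG was found once in this Kcne3 window, 111 bases from its 5′ end, and these letters were not in the Apln window. RefSeq gives Kcne3 a second start, whose window at chr7:100178433-100178732 does not hold these letters either. Of all 32851 promoter windows in the table, 19.6% held ACGTG. The core of ETS factor sites, CCGGAA, was in neither window, and in 14.9% of all windows.

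Kcne3 was most abundant at the embryonic stages, in the selected and in the other gated cells. Its level in them was 423, 235, 42.2 and 19.8 CPM. In the other gated cells it was 64.8, 34.5, 6.88 and 3.13 CPM, so the earlier stages were high in both groups. Endocardial cells, with at least 2 UMIs of Npr3 and Tmem108, had 3.19, 6.92, 1.58 and 0 CPM of Kcne3. The share of selected cells with a Kcne3 UMI was 50.9%, 21.6%, 13.7% and 3.92%, and in endocardial cells it was 0.314%, 0.686%, 0.663% and 0 of 116 cells, which allows a share of up to 2.59%, at median depths of 1337.5, 1088, 4853 and 2653.5 UMIs. The selected cells were of median 2541, 1351.5, 5216 and 2116 UMIs. Apln ran the other way. It stood at 78.9, 165, 177 and 337 CPM in the selected cells and at 28.8, 30.3, 55.0 and 20.8 CPM in the other gated cells, so that the adult was the highest stage in the first and the lowest in the second. Since both genes chose the cells, these levels describe the selection and are no finding.

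The other 3 genes filled the set unevenly. Tmem255a was at 172, 382, 261 and 7.93 CPM in the selected cells, and had a UMI in 2 of the 102 adult cells. Pcdh17 varied least between the stages, at 316, 312, 271 and 357 CPM. Ptp4a3 was at 309, 967, 559 and 1249 CPM, and gave 23.8%, 46.9%, 42.7% and 63.4% of the UMIs of the set. It was the only set gene with a UMI in 36 of the 102 adult cells, 17 of them the cells with mural markers. Cells in which 1 gene of the set met the rule alone were 34.5%, 32.5%, 9.29% and 40.2% of the selected cells, and 38 of 1044 P2 cells, and no selected cell of another stage, had a UMI of each of the 5. The E12 file also held 156803 barcodes with fewer than 100 UMIs, which carry free RNA. In these Kcne3 was at 13.7 CPM and Apln at 12.4 CPM, below the selected cells, whereas Fabp4 was at 588 CPM, near the 552 CPM of the selected cells and the 576 CPM of the other gated cells, and endocardial cells had 9.56 CPM.

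**Figure D2:**
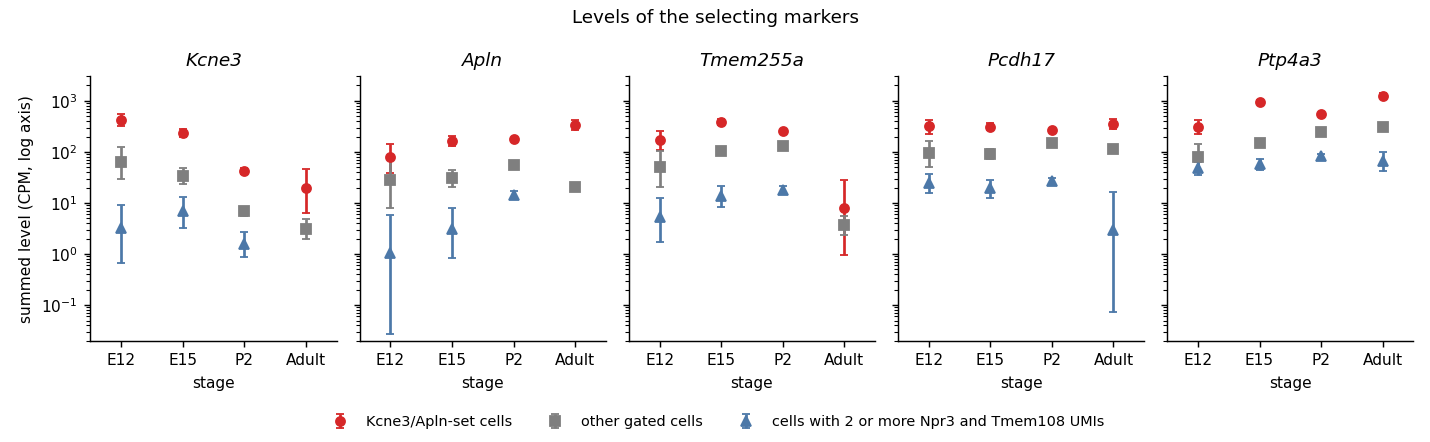
Each panel gives 1 of the 5 selecting genes, with the stage on the horizontal axis and its level in CPM on a logarithmic vertical axis, and exact 95% intervals of counting error, for Kcne3/Apln-set cells, other gated cells and cells with 2 or more Npr3 and Tmem108 UMIs (groups at 0 CPM have no point). Kcne3 is highest at E12, at 423 CPM in the selected cells, and Apln in the adult, at 337 CPM.

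Cells just inside and just outside the rule are given for P2, the stage with the most cells. At P2 the 77 selected cells with exactly 2 UMIs of the set had a median of 3098 UMIs, against 5216 over the selected cells, and artery genes at 1307 CPM against 1012. The 33 P2 cells just outside, with 1 UMI of the set and none of the 3 competing sets, had a median of 2439 UMIs and artery genes at 1703 CPM. Many cells had 2 or more UMIs of the set but were matched or passed by a competing set, 3, 29, 1577 and 667 from E12 to the adult. At P2 these 1577 cells held more capillary transport RNA, 10014 CPM against 7394, and more artery RNA, 2342 CPM.

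To see whether the 5 genes go together, each was measured in cells chosen by the other 4, so that the gene had no part in its own choice. The other 4 still had to exceed the 3 competing sets, so cells led by a competing set fell outside the choice. Cells led by the capillary set, with at least 2 of its UMIs and more than of each other set, numbered 2, 40, 1453 and 2033. A gene low in such cells would have a raised ratio by this rule, and their part was not tested. At P2 each of the 5 was higher in the cells chosen by the rest. Kcne3 was at 36.7 CPM in 1026 such cells and at 9.84 CPM in 2681 other gated cells, a ratio of 3.73 (2.97 to 4.69). Apln followed with 141 against 76.6 CPM, a ratio of 1.84 (1.67 to 2.02). Ptp4a3, Tmem255a and Pcdh17 had ratios of 1.42, 1.20 and 1.14. In the kept P2 cells they were 3.35, 1.66, 1.31, 1.09 and, for Pcdh17, 1.04 (0.962 to 1.12). In the adult Apln was at 165 CPM in cells chosen by the other 4 genes and 28.5 CPM in the others, a ratio of 5.80 (3.86 to 8.46). Ptp4a3 and Pcdh17 had adult ratios of 2.32 and 1.65, while Kcne3 and Tmem255a, with 2 UMIs and 1 UMI in these cells, could not be placed. At E15 only Kcne3 was higher, 153 against 81.1 CPM or 1.88-fold (1.36 to 2.61). The E15 ratios of Apln, Tmem255a and Ptp4a3 were 0.982, 0.991 and 1.05 with intervals around 1, and that of Pcdh17 was 0.754, or 0.729 (0.539 to 0.976) in kept cells. Within the quartiles of the selected cells' UMIs the ratio of Kcne3 was 0.977 at E15 and 2.24 at P2. At E12 each of the 5 intervals held 1, with ratios from 1.05 for Pcdh17 to 1.74 for Apln, resting on 5 to 36 UMIs in the other gated cells. The intervals thus lay above 1 for the 5 genes at P2 (in kept cells for all but Pcdh17) and for 3 of them in the adult, while at E12 no difference was detectable at this depth, and at E15 that of Kcne3 was not seen at matched depth.

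**Figure D3:**
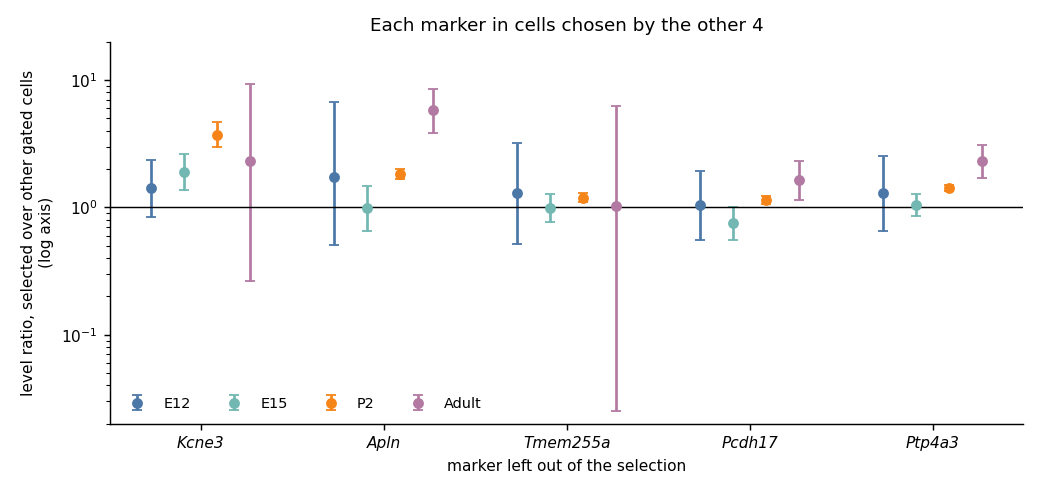
The ratio of each gene's level in cells chosen by the other 4 genes to that in other gated cells is on the logarithmic vertical axis, by gene and stage, with exact 95% intervals of counting error and a line at 1. The P2 points lie above 1 for each of the 5 genes, the highest being Kcne3 at 3.73, and the adult Apln point lies at 5.80.

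The Kcne3/Apln-set cells were a large share of the gated coronary cells until P2 and few in the adult. Of cells with at least 1 UMI of Fabp4, Cldn5 or Aplnr and none of Npr3 and Tmem108, they made up 18.3% (14.1 to 23.2) of 300 at E12, 24.9% (22.7 to 27.2) of 1468 at E15, 27.8% (26.4 to 29.3) of 3751 at P2 and 2.53% (2.07 to 3.06) of 4030 adult cells. The rule needs UMIs, and the P2 library was the deepest. With each cell thinned to 1000 UMIs, leaving out 1673, 2966, 0 and 996 shallower barcodes, the shares were 9.70%, 19.2%, 12.3% and 2.34%, and E15 was the highest. Thinned to 500 UMIs they were 3.70% (1.37 to 7.89), 10.4% (8.72 to 12.2), 5.47% (4.80 to 6.20) and 1.81% (1.42 to 2.27), the first resting on 6 cells. The adult share was the lowest as deposited and at 1000 UMIs, at 500 UMIs the E12 interval held the adult share, and the order of E15 and P2 turned with depth. The digestion differed between stages too, and its part in the shares was not tested.

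**Figure D4:**
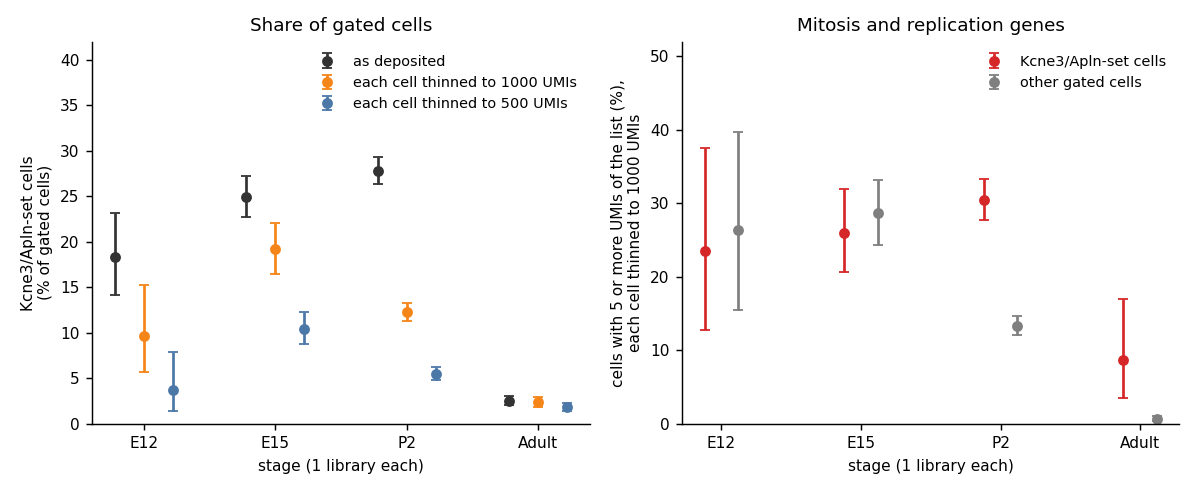
Left, Kcne3/Apln-set cells as a percentage of gated cells by stage, as deposited and with each cell thinned to 1000 or 500 UMIs. Right, the percentage of cells with 5 or more UMIs of mitosis and replication genes after thinning to 1000 UMIs, in selected and other gated cells. Bars are exact 95% binomial intervals. P2 has the highest share as deposited (27.8%) and E15 after thinning to 1000 UMIs (19.2%), and selected cells hold more cells with 5 or more such UMIs at P2 (30.5% against 13.4%) and in the adult (8.64% against 0.645%).

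Levels of genes outside the rule were then compared between selected and other gated cells. A gene was compared where at least 20 UMIs were expected in each group, and called higher or lower at a ratio of 1.5 or more in either direction. At E12, 81 of 900 compared genes (9%) were higher and 53 (5.89%) lower, and 63 and 64 with each ratio divided by the median ratio. At E15, 123 of 3197 (3.85%) were higher and 163 (5.10%) lower. At P2, 474 of 10167 (4.66%) were higher and 1077 (10.6%) lower, and in the adult 158 of 2046 (7.72%) and 371 (18.1%). In kept cells 478 of 9920 genes (4.82%) were higher and 841 (8.48%) lower at P2, and 153 of 1644 (9.31%) and 257 (15.6%) in the adult. Counts of list members called below are to be set beside these shares over all compared genes. Because the rule asks the set to exceed the capillary and artery sets, the levels of genes that go with those sets are not independent of the selection. The artery and capillary transport lists are therefore given as descriptions.

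Of 1884 genes compared at 3 or 4 stages, 1 (0.0531%) was called higher at each, and 15 (0.796%) lower at each. The gene called higher was Gap43, a growth-associated protein best known from growing axons (chr16:42248442-42340651, minus strand). It was at 402 CPM in selected and 216 CPM in other gated cells at E12, a ratio of 1.86 (1.17 to 3.0). At E15 it was at 207 and 93.1 CPM, and at P2 at 124 and 56.3 CPM, ratios of 2.23 (1.67 to 2.97) and 2.2 (1.98 to 2.44). Both groups were lower at each later stage, and the adult cells had 0 and 12 UMIs, too few to compare. In kept cells the 3 ratios were 2.02, 2.36 and 2.76. Lxn, encoding the carboxypeptidase inhibitor latexin, was next in order of its lowest ratio, at 1.49, 1.45 and 1.87 from E15 on. Gapdh, a glycolytic enzyme, had ratios of 1.48, 1.31, 1.34 and 1.57, past the limit for a call in the adult only. Odc1, the rate-limiting enzyme of polyamine synthesis, had ratios of 2.02, 1.35 and 1.71 at E12, E15 and P2, while Amd1, which supplies the same pathway, was among the lowest, at 0.634, 0.490 and 0.154 from E15 on. Over P2 cells led by the capillary set Odc1 was at 1.76 and Amd1 at 1.18. Mcam, an adhesion molecule of vessel walls that mural cells share, was at 171 against 131, 173 against 116 and 254 against 106 CPM at these stages, and its adult ratio was 2.18 in the kept cells.

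The 10 genes lowest in order of their highest ratio, each compared at 3 or 4 stages, were, from the lowest, Fbln2, Mgp, Meg3, Ccl21a, Mdk, Ltbp4, Fn1, Arl4a, Id2 and Amd1. Their P2 ratios over cells led by the capillary set were, in order, 0.811, 1.16, 1.24, 2.14, 1.63, 0.770, 1.15, 0.833, 0.744 and 1.18. Over P2 cells led by the artery set they were 0.198, 0.544, 0.254, 0.135, 0.555, 0.258, 0.242, 0.559, 0.774 and 0.159. At P2 the low ratios thus depended on which cells were set against the selected ones. Fbln2, encoding fibulin-2, was at 16.5, 73.2 and 3.97 CPM in selected cells and 114, 334 and 232 CPM in other gated cells from E15 on. Mgp, an inhibitor of calcification, was at 101, 42.5 and 143 CPM against 370, 320 and 493 CPM. In the kept adult cells it was at 49.5 against 252 CPM. Fn1, encoding fibronectin, had ratios of 0.474, 0.509, 0.324 and 0.121 from E12 to the adult, and 0.458 to 0.156 at these ends in kept cells. Ccl21a, the lymphatic chemokine, had ratios of 0.388, 0.157 and 0.121 at E12, E15 and P2 with every cell in, and 1.01 (0.777 to 1.31) in the kept P2 cells, where cells with 5 or more UMIs of lymphatic markers, Ccl21a among them, were left out.

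**Figure D5:**
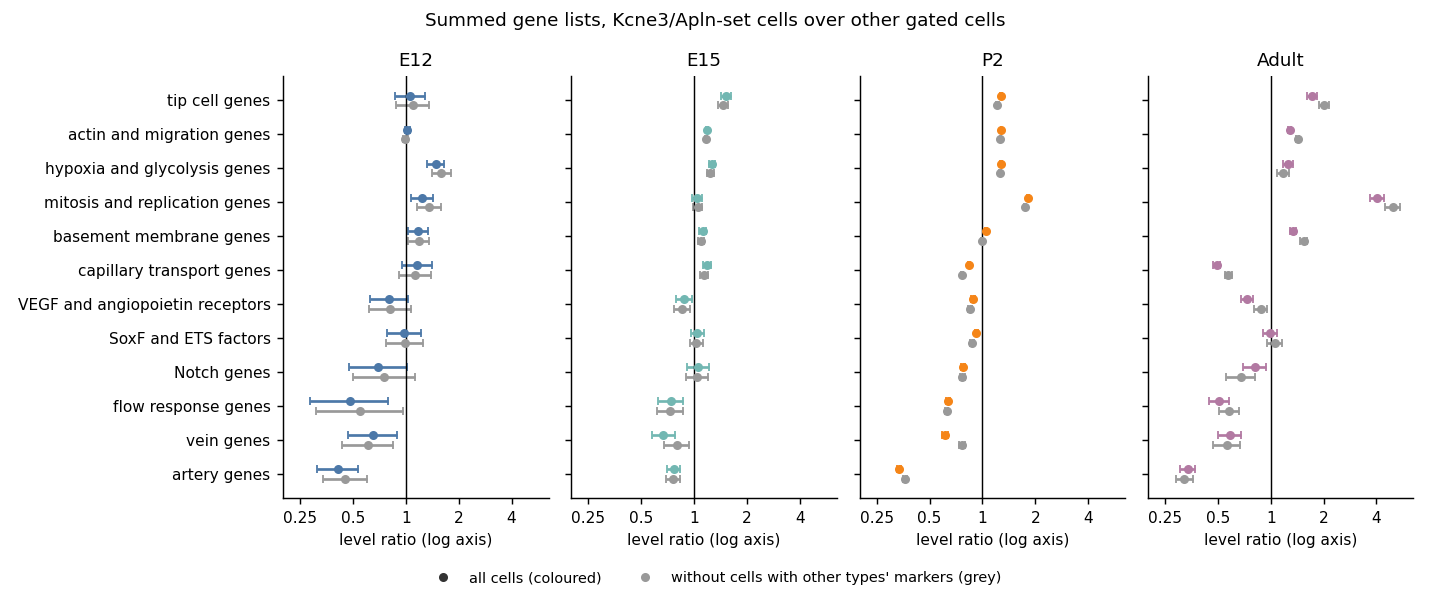
For 12 lists of genes, the ratio of the summed level in Kcne3/Apln-set cells to that in other gated cells is on the logarithmic horizontal axis, 1 panel per stage, with exact 95% intervals of counting error and a line at 1, in all cells and in kept cells. Artery genes lie left of 1 at each stage (0.409, 0.765, 0.335 and 0.337 in all cells), and mitosis and replication genes lie farthest right in the adult, at 4.03 in all cells and 4.97 in kept cells.

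Tip cell genes, 21 genes that mark the leading cells of a sprout, had a higher summed level in the selected cells from E15 on, with members in both directions. Their sum was 1521, 3271, 4235 and 4263 CPM in the selected cells and 1447, 2155, 3316 and 2478 CPM in the other gated cells. The ratios were 1.05 (0.862 to 1.28), 1.52 (1.42 to 1.62), 1.28 (1.26 to 1.30) and 1.72 (1.62 to 1.83), and 2.02 (1.90 to 2.15) in the kept adult cells. The E12 ratio was 2.32 (1.37 to 3.95) without cells holding a mitosis or replication UMI and 1.33 (1.07 to 1.65) with 3 UMIs of the set required. The former setting left out 49 of the 55 selected and 59 of the 75 other gated cells, so its ratio rests on few cells. Of the compared genes, 6 of 16 were called higher and 1, Plvap, lower at E15. At P2 it was 4 of 21, with 3 lower, Angpt2 and Plvap among them, of which Plvap alone was lower in kept cells, and of 11 adult genes it was 6 (Trp53i11, Mcam, Lxn, Fscn1, Lama4 and Lamb1), with Igfbp3 lower. Their median log2 ratio was 0.38, 0.18 and 0.62 at these stages, beside 0.01, -0.06 and -0.08 over all compared genes.

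Which tip cell genes were high differed between stages. At E15 Igfbp3, an IGF binding protein, was at 769 against 297 CPM, Cxcr4, the receptor of the chemokine Cxcl12, at 89.9 against 33.5 CPM, and Dll4 at 78.9 against 35.6 CPM. These ratios were 2.59 (2.22 to 3.02), 2.69 (1.69 to 4.33) and 2.22 (1.38 to 3.59). Unc5b, a netrin receptor, and Nid2, a basement membrane nidogen, were also higher, by 1.98 and 2.17 times. The sixth gene called there was Plaur, the urokinase receptor. At P2 Igfbp3 was still 2.1-fold (1.94 to 2.26) higher, at 224 against 107 CPM, but Dll4 was at 46.8 against 47.8 CPM, Cxcr4 at 5.27 against 6.88 CPM and Unc5b at 38.4 against 54.2 CPM. The P2 genes called higher were Igfbp3, Adm, Fscn1 and Trp53i11. Adm, encoding the vessel-dilating peptide adrenomedullin, had a ratio of 1.89 (1.66 to 2.15), and Fscn1, the actin bundler fascin of cell protrusions, one of 1.67 (1.61 to 1.72). In the adult Igfbp3 was lower, at 39.7 against 94.0 CPM, but with 10 UMIs in the kept selected cells it could not be called there, while Fscn1 was at 964 against 325 CPM, a ratio of 2.97 (2.59 to 3.39). Adult Adm stood at 282 against 53.3 CPM, below the number of UMIs set for a call. Esm1, a marker used for tip cells, was low at each stage before the adult, at 28.7, 14.7, 10.2 and 91.2 CPM against 28.8, 9.42, 7.54 and 22.8 CPM. Plvap, of the diaphragms of fenestrated endothelium, was lower at P2, at 32.5 against 97.3 CPM, and its ratio was 0.334 with every cell in and 0.548 in kept cells.

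The Notch genes and the VEGF and angiopoietin receptors did not follow the tip cell list upwards. The 7 receptors summed to ratios of 0.80, 0.874, 0.886 and 0.732 from E12 to the adult. Kdr, the main VEGF receptor, was at 599 against 787 CPM in the adult, and at 743 against 818 CPM in kept cells. Flt1, which binds VEGF and limits its action, was at 167 against 688 CPM, a ratio of 0.242 (0.174 to 0.328), and Nrp2, a coreceptor, at 432 against 171 CPM, a ratio of 2.53 (2.06 to 3.08). Flt1 and Nrp2 kept their direction in the kept adult cells, at 0.291 and 3.06. The 11 Notch genes had sums of 0.696, 1.05, 0.772 and 0.810 times the other gated cells, and 4 of 9 compared at P2 were called lower. Of all genes compared at P2, 10.6% were lower.

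The summed level of artery genes was lower in the selected cells at each stage, at ratios of 0.409, 0.765, 0.335 and 0.337. At E12 only 1 gene of the list had the UMIs to be compared, and it was called lower. At P2, 15 of 15 compared artery genes were called lower, and 10 of 10 in the adult, and in kept cells 15 of 15 and 9 of 9. Gja4, a gap junction protein of arteries, was at 23.4 CPM in selected and 174 CPM in other gated P2 cells, a ratio of 0.134 (0.112 to 0.159). Its paralogue Gja5 was at 4.28 against 38.7 CPM, and Sox17, an artery transcription factor, at 126 against 277 CPM. At E15 the list was less uniform, with 5 of 11 compared genes lower and Gja4 higher. E15 Gja4 stood at 147 against 92.1 CPM, a ratio of 1.59 (1.16 to 2.18). The 5 lower genes were Jag1, Fbln2, Edn1 (endothelin-1), Ltbp4 and Mgp, among them Fbln2, Mgp and Edn1 at ratios of 0.145, 0.272 and 0.232, and Mecom at 182 against 140 CPM had a ratio of 1.30 (0.989 to 1.69). Vein genes had sums of 0.648, 0.668, 0.610 and 0.586 times the others, and 0.605, 0.794, 0.766 and 0.562 in kept cells. Vwf, the platelet-binding factor of larger vessels, was at 5.27 against 44.8 CPM at P2, and Emcn, of veins and capillaries, at 378 against 439 CPM.

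The summed level of genes of fatty acid and water transport in capillaries was lower in the selected cells at P2 and in the adult. Before that the sum rested on Fabp5, a fatty acid binding protein. The 15 genes summed to 1622, 4827, 7394 and 8312 CPM in the selected and 1397, 4071, 8858 and 16884 CPM in the other gated cells, ratios of 1.16, 1.19, 0.835 and 0.492. The E12 interval was 0.954 to 1.41. Without Fabp5, which gave 87.6% of the E12 and 67.4% of the E15 sum in the selected cells, the ratios were 0.715 (0.424 to 1.19) and 1.00 (0.919 to 1.09), and at E15 none of 9 compared genes was called in either direction. At P2, 8 of 15 genes were lower and none higher. Cd36, the fatty acid carrier, was at 1491 against 2311 CPM, Aqp7, a glycerol channel, at 79.3 against 265 CPM, and Gpihbp1, which anchors lipoprotein lipase, at 1459 against 1508 CPM. Fabp5 stood apart, at 2070 against 1457 CPM. In the adult 12 of 15 were lower, all but Fabp5, Meox2 and Cyp4b1, with Cd36 at 1634 against 3524 CPM and Ly6c1 at 1432 against 3849 CPM. In the kept adult cells 11 of 15 were lower and the summed ratio was 0.572 (0.547 to 0.598), so the list was lower with the mural cells left out too. Meox2 and Tcf15, which together drive fatty acid uptake in heart capillaries, were at 131 against 174 and 246 against 428 CPM in the adult.

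Genes of mitosis and DNA replication were higher in the selected cells at P2, and their sum also in the adult. The 20 genes summed to 3143, 3011, 4768 and 1947 CPM in the selected cells and 2542, 2901, 2626 and 483 CPM in the other gated cells. The ratios were 1.24 (1.07 to 1.43), 1.04 (0.976 to 1.10), 1.82 (1.79 to 1.84) and 4.03 (3.66 to 4.43). At P2, 20 of 20 compared genes were called higher, and 19 of 20 in kept cells. Among them Cdk1, the mitotic kinase, was at 254 against 120 CPM, Top2a, which untangles chromosomes, at 211 against 115 CPM, and Mki67, encoding Ki-67, at 60.8 against 36.0 CPM. In the adult Hmgb2, a chromatin protein of dividing cells, was at 631 against 174 CPM, a ratio of 3.63 (3.06 to 4.29), and few other genes of the list had the UMIs to be compared.

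The signal sat in a part of the cells. After thinning to 1000 UMIs, cells with 5 or more UMIs of the list were 23.5%, 26.0%, 30.5% and 8.64% of the selected cells and 26.3%, 28.6%, 13.4% and 0.645% of the other gated cells. The P2 intervals were 27.7 to 33.4 against 12.1 to 14.7, the adult ones 3.55 to 17.0 against 0.388 to 1.00, while those of E12 and E15 overlapped. Without thinning the shares were 61.8%, 27.9%, 65.7% and 12.7% against 41.3%, 24.9%, 34.7% and 1.41%. In the adult these were 13 of 102 selected cells, and each of the 13 was among the 85 kept. Those 13 held 85.3% of the list's UMIs in the selected adult cells. Between the quartiles of the selected cells' UMIs the summed ratio was 1.53 at P2 and 2.22 for adult cells, smaller than without this limit on depth. Of the P2 cells led by the capillary set 14.8% had 5 or more such UMIs after thinning, and of those led by the artery set 6.00%.

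The summed level of hypoxia and glycolysis genes was higher in the selected cells at each stage, though few single genes were called. The 23 genes summed to 5740, 5964, 4830 and 3720 CPM against 3888, 4719, 3771 and 2948 CPM, ratios of 1.48 (1.32 to 1.65), 1.26 (1.21 to 1.32), 1.28 (1.26 to 1.30) and 1.26 (1.18 to 1.35). Ldha, which makes lactate, was at 1098, 827, 924 and 472 CPM in the selected and 590, 722, 753 and 555 CPM in the other gated cells, with an E12 ratio of 1.86 (1.41 to 2.46). The genes called higher were 3 of 8 compared at E12 (Gpi1, Aldoa and Ldha), none of 11 at E15 and 3 of 9 in the adult (Gpi1, Gapdh and Tpi1), where Ndrg1 was lower. Aldoa, the aldolase, had an E12 ratio of 1.85. At P2, 6 of 21 compared genes (Tpi1, Pgk1, Pkm, Pdk1, Egln3 and Adm) were called higher and 1, Bnip3, lower. Pgk1 was at 40.9 against 25.5 CPM, whereas Bnip3, of mitophagy, was at 33.0 against 60.4 CPM, a ratio of 0.546 (0.464 to 0.639). In the kept adult cells the sum had a ratio of 1.18, but 1 of 7 compared genes was called higher, 4 of 7 lay below 1 and the median log2 ratio was -0.20. Aldoa, at 1.20 in all cells, was at 0.818 in kept cells.

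The summed level of 17 actin and migration genes was higher from E15 on, at ratios of 1.18, 1.27 and 1.28, and 1.42 (1.39 to 1.45) in the kept adult cells. Called higher were 1 of 17 compared genes at E15 (Tubb6), 3 of 17 at P2 (Fscn1, Tubb6 and Cotl1) and 7 of 15 in the adult, and none lower. Over all compared genes 3.85%, 4.66% and 7.72% were higher at these stages, so the E15 count is near that share. Actb led the sum, and without it the ratios were 1.13, 1.23 and 1.26. Actb was at 15277 against 11500 CPM at E15. In the kept adult cells Stmn1, a regulator of microtubules, was at 585 against 129 CPM, Tmsb10, a thymosin that binds actin, at 4543 against 1537 CPM, and Vim, the filament vimentin, at 1903 against 662 CPM. These ratios were 4.55 (3.71 to 5.52), 2.96 (2.76 to 3.16) and 2.87 (2.58 to 3.19). The 118 UMIs of Stmn1 came from 18 of the 85 cells, 37 of them from 1 cell, while Tmsb10 was found in 76 and Vim in 57. Basement membrane genes had summed ratios of 1.17, 1.12, 1.05 and 1.34, and 1.18, 1.09, 0.99 (0.980 to 1.00) and 1.54 (1.48 to 1.61) in kept cells, so that P2 lay on the other side of 1. Members went both ways. Of 7 compared at E12, Col4a1 and Col4a2 were called higher and Col18a1 and Nid1 lower, and of 16 at P2, Col15a1 higher and Lama5 and Lamb2 lower. In kept cells 2 of 6 were higher and 1 lower at E12, and 0 of 16 higher and 2 lower at P2. At E15, where 3.85% of all compared genes were higher, 1 of 13 was higher and none lower. Adult calls were 4 of 11 higher and none lower, or 3 of 8 higher and 1 lower in kept cells. Without Sparc, which led the sum, the E12 ratio was 1.07 (0.917 to 1.25). The collagen chaperone Serpinh1 was at 1650 against 783 CPM and the collagen chain gene Col4a1 at 1115 against 698 CPM in the kept adult cells.

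Genes that respond to blood flow were mostly lower at P2 and in the adult, where 4 of 6 compared genes (Klf2, Klf4, Thbd and Pi16) were called lower at both. At E15 it was 1 of 3, Klf2, and at E12 none had the UMIs to be compared. The 6 genes summed to 179, 371, 1518 and 980 CPM against 374, 504, 2387 and 1928 CPM, ratios of 0.479, 0.735, 0.636 and 0.508, and the E15 ratio without Klf2 was 0.855 (0.680 to 1.07). Klf2, a transcription factor induced by shear stress, was at 154 against 251 CPM at E15, 1011 against 1575 at P2 and 254 against 572 in the adult, so of these stages it was highest at P2 in both groups, and lower in the selected cells at each of the 3. Immediate-early and stress genes, which tissue dissociation can induce, summed to ratios of 0.696, 0.739, 0.672 and 0.936. Fos was at 97.2 against 248 CPM at E15 and 1244 against 1944 CPM at P2. Interferon genes had summed ratios from 0.767 to 1.21. In the adult 5 of 7 compared (Ifit1, Ifit3, Iigp1, Isg15 and Irf7) were called lower, 3 of 6 in kept cells, and the ratio without Bst2, which led the sum, was 0.584 (0.501 to 0.676). Over all genes compared in the adult 18.1% were lower, and 15.6% in kept cells. The sums of SoxF and ETS factors had ratios from 0.921 to 1.04.

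The single genes with the highest lower or lowest upper bounds were taken at each stage from the whole table, list members included. At E12, with 53 kept cells, Psma6 (a proteasome subunit) was at 294 against 74.6 CPM, a ratio of 3.95 (1.82 to 9.78). Cycs, encoding cytochrome c, was at 997 against 475 CPM, and Srm, spermidine synthase, had a ratio of 3.33 (1.58 to 7.84). Malat1, a nuclear RNA, was at 6274 against 12110 CPM, a ratio of 0.518. At E15 the kept cells were highest in Igfbp3, Chst1, Gap43, Sat1 and Nts. Chst1, a sulfotransferase, was at 72.6 against 20.9 CPM and the neuropeptide gene Nts at 220 against 104 CPM, while Bmp4, a growth factor, was at 9.56 against 78.9 CPM and the growth factor Igf1 at 70.7 against 159 CPM.

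At P2 the kept cells had the highest lower bounds, after Ccl5, for Stc2, Sh3gl3 and Gap43, among others. The 92 UMIs of Ccl5 came from 1 cell. Stc2, encoding the secreted stanniocalcin-2, was at 8.53 against 1.44 CPM, a ratio of 5.92 (3.27 to 11.3). Etv4, an ETS transcription factor, was at 12.4 against 4.32 CPM. At the other end stood Ptprr, Dhh, Dkk2 and S100a4, with ratios of at most 0.0555 each, and Atp2a3, with 0 UMIs in the selected and 58 in the other gated cells. Dhh, the hedgehog ligand, was at 1.02 against 18.4 CPM, and the Wnt antagonist Dkk2 at 0.171 against 7.49 CPM.

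In the kept adult cells, after Stmn1 and Hmgb2, the highest lower bounds were those of Fscn1, Tmsb10 and Vim. Nrp2 was at 540 against 176 CPM and Rhoc, a GTPase of cell movement, at 1060 against 479 CPM. The lowest were Fbln2, Slc6a6, Vegfc, Slc26a10 and Cdkn1c. Cdkn1c, an inhibitor of the cell cycle, was at 109 against 563 CPM, a ratio of 0.194 (0.121 to 0.294), and Slc6a6, the taurine transporter, at 44.6 against 497 CPM. Vegfc, a lymphatic growth factor, was at 4.95 against 113 CPM.

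The other gated cells mix several kinds, so the selected cells were also set against cells led by the capillary set alone, 1453 at P2 and 2033 in the adult. Against the kept ones of these, tip cell genes had ratios of 1.17 (1.15 to 1.19) at P2 and 1.91 (1.79 to 2.04) for adult cells. Mitosis and replication genes had 1.60 and 5.39, hypoxia and glycolysis genes 1.27 and 1.23, and capillary transport genes 0.650 and 0.521. The artery list was 0.771 (0.745 to 0.797) at P2 and 0.563 (0.501 to 0.631) for adult cells, nearer to 1 than against all the other gated cells. Basement membrane genes were 0.981 at P2 and 1.45 in the adult. Against cells led by the artery set, 417 at P2 and 1186 in the adult, the kept cells had mitosis and replication genes at 3.12 and 5.78 and artery genes at 0.178 and 0.213.

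Across the stages the selected cells themselves differed widely, with library and stage not told apart. From E12 to E15, 64 of 936 compared genes (6.84%) were at least 2-fold higher at E15 and 18 (1.92%) lower. From E15 to P2 it was 626 of 3767 (16.6%) higher and 102 (2.71%) lower, and from P2 to the adult 65 of 2040 (3.19%) and 205 (10.0%), or 49 and 146 genes in kept cells. The adult cells of the last step include the 17 with mural markers, and the 10 mural markers were 91.5-fold higher in it in the selected cells and 3.87-fold in the other gated cells. Cd36 stood at 14.3, 416, 1491 and 1634 CPM and Gpihbp1 at 7.17, 547, 1459 and 1527 CPM in the selected cells, so the E12 cells were low in both of these capillary genes. From E15 to P2, 11 of 13 compared capillary transport genes were higher and the sum was 1.53-fold (1.47 to 1.59) higher, against 2.18-fold in the other gated cells. From P2 to the adult the sum was 1.12-fold higher in the selected and 1.91-fold in the other gated cells, and in kept selected cells it stood at 7507 and 10107 CPM at these stages.

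Tip cell genes also took different courses. Igfbp3 was at 165, 769, 224 and 39.7 CPM from E12 to the adult, and Cxcr4 at 0, 89.9, 5.27 and 27.8 CPM, both highest at E15. Fscn1 was at 316, 409, 1029 and 964 CPM and Adm at 43.0, 44.0, 75.5 and 282 CPM, higher at the later stages. Mitosis and replication genes were 0.408 times as high in the adult as at P2 in the selected cells, with 13 of 18 compared genes lower, and 0.184 times in the other gated cells. Artery genes were 0.745 times as high at P2 as at E15 in the selected cells, against 1.70 times in the other gated cells. Immediate-early and stress genes were 4.58-fold higher at P2 than at E15 in the selected and 5.03-fold in the other gated cells, so this difference was not particular to either group.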

How the data were processed

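The authors deposited counts, 1 table of UMIs for 27998 genes by barcode from each 10x v2 library, made with Cell Ranger 2.2 and the mm10 reference, per the submitters' processing notes. The counts are whole numbers, not normalized. E12 barcodes were called here by Cell Ranger's order-of-magnitude rule (3000 expected cells, lowest called 452 UMIs), and the other files hold called barcodes. Members, lists, markers and limits were chosen with earlier results of these data known. UMIs were summed over cells and divided by the cells' total (CPM). Ratios have exact conditional binomial intervals and shares exact binomial ones (Python 3.11.15, numpy 2.4.6, scipy 1.17.1, pandas 2.3.3), tested on simulated data. The 23 genes of the rule were left out of the comparisons. Genes are named if they belong to the rule or a list, or have the 15 highest lowest or 10 lowest highest ratios over at least 3 stages, or, at a stage, the 5 highest lower or 5 lowest upper bounds, here also over kept cells. Other genes named among the 15 highest or lowest bounds in kept cells (Etv4, Rhoc, Nrp2, Igf1) were chosen after their values were seen. Doublets were not removed. Scrublet scores over 0.15 (expected rate 0.8% per 1000 cells) marked 6.12%, 9.45%, 4.32% and 2.43% of barcodes and 2, 15, 38 and 0 members, and leaving them out was an alternative, as were thinning, the study's limits on UMIs, genes and mitochondrial share, other thresholds and depth quartiles. A few genes that the rule names are not reported here.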

Additional observations from a re-analysis of the deposited data

Results flagged for a closer look

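The summed level of 15 capillary transport genes lay on opposite sides of 1 between stages, with the E15 value resting on Fabp5. That level in the selected cells over the other gated cells was 1.19 (1.13 to 1.25) at E15, above 1, but below 1 later, at 0.835 (0.826 to 0.844) for P2 cells and 0.492 (0.471 to 0.514) for adult cells. The difference between stages was not tested, since each stage had 1 library. Without Fabp5 the E15 ratio was 1.00 (0.919 to 1.09), and none of 9 compared genes was called at E15. The rule asks the set to exceed the capillary set, and cells led by that set were 40 of the gated cells at E15 but 1453 at P2 and 2033 of the adult ones. These ratios are therefore not independent of the selection, whose part in them was not tested.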

How the results depend on the processing

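No paired analysis was possible because each stage had 1 library. No library could be left out for the same reason. Of the values recomputed under other settings, 551 stayed within their interval or within 1.5 times of their count, 264 moved beyond it and 13 turned in direction. The cause was not tested for any value that moved, except where fewer cells or genes entered by construction. Lists below are ratios of summed levels, selected over other gated cells. Counts of genes below are not shares. The number of genes compared changed with the cells kept and the UMIs asked for, so a count does not tell whether differences were more or fewer. The share of selected cells was 3.70%, 10.4%, 5.47% and 1.81% from E12 to the adult with cells thinned to 500 UMIs, and 9.70%, 19.2% and 12.3% until P2 with 1000 UMIs. At E15 it was 30.4% of barcodes with at least 1000 UMIs. With at least 3 UMIs of the set required the shares were 10.0%, 12.4%, 25.8% and 1.91%. Then 28 genes were higher and 28 lower at E12 and 75 and 91 at E15, tip cell genes were 1.33 at E12, artery genes 0.855, mitosis genes 1.14 and hypoxia genes 1.33 at E15, and erythroid markers at P2 turned to 0.479. Within the quartiles of the selected cells' UMIs, 30 genes were higher and 18 lower at E12, 46 and 71 for E15, 272 higher for P2, and 64 and 204 among adult cells. Hypoxia genes were then 1.21, 1.11 and 1.18 from E12 to P2, mitosis genes 0.866 at E15, 1.53 at P2 and 2.22 in adult cells, tip cell genes 1.31 at P2 and 1.56 in adult cells, and artery genes 0.321 at P2. Fibroblast markers turned to 1.06 at E12 and erythroid markers to 0.344 at E15. Of the 5 genes, each in cells chosen by the other 4, Kcne3 turned to 0.977 at E15, and the P2 ratios were 2.24 for Kcne3, 1.33 for Tmem255a, 1.23 for Pcdh17 and 1.32 for Ptp4a3, with adult Tmem255a at 0. With the study's limits on cells, 32 genes were lower at E12 and 105 higher in adult cells, mitosis genes were 0.970 at E15 and 2.70 in adult cells, and hypoxia genes 1.25 at P2.

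With every cell that had a mitosis or replication UMI left out, the numbers of genes higher and lower were, in stage order, 1 and 9, 34 and 54, 35 and 137, and 51 and 148. This setting left out 49, 253, 996 and 57 of the selected and 59, 522, 2347 and 1540 of the other gated cells. Tip cell genes were then 2.32 at E12, 1.36 at P2 and 1.86 in adult cells, artery genes 0.237, 0.557, 0.302 and 0.403 in stage order, and hypoxia genes 3.27, 1.11 and 1.21 until P2. Lymphatic markers turned to 1.49 at E12, and cardiomyocyte and erythroid markers at P2 to 1.02 and 0.806. With cells holding other types' markers left out, a setting chosen after seeing the data, 28 genes were lower at E12 and the P2 share was 30.0%. Tip cell genes were 1.22 at P2 and 2.02 in adult cells, artery genes 0.362 at P2, mitosis genes 1.75 at P2 and 4.97 in adult cells, and hypoxia genes 1.18 in adult cells. The P2 ratios in cells chosen by the other 4 genes were 1.66 for Apln, 1.09 for Tmem255a, 1.04 for Pcdh17 and 1.31 for Ptp4a3. Lymphatic markers turned to 1.19 at E12, 1.04 at P2 and 1.14 in adult cells, erythroid markers to 0.471 at E15 and leukocyte markers to 1.10 in adult cells. With at least 5 expected UMIs per gene 533 genes were higher and 583 lower at E12, 755 and 1091 for E15, 1856 lower for P2, and 679 and 1283 among adult cells, and with at least 100 the counts were 5 and 1, 8 and 9, 248 and 398, and 27 and 78. At 2-fold they were 14 and 11, 18 and 44, 81 and 466, and 42 and 173, of the same 900, 3197, 10167 and 2046 compared genes. Against cells with a gate sum of at least 1, hypoxia genes were 1.81 at E12 and 1.43 at E15, and tip cell, artery and mitosis genes 1.66, 0.635 and 1.13 at E15. With Scrublet scores over 0.15 left out, fibroblast markers turned to 1.30 at E12 and mitosis genes were 1.87 at P2. At E12, with 55 and 75 cells in the 2 groups, 900 genes had the UMIs to be compared.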

Other observations

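Apln and Esm1 are both used as markers of sprouting cells, and Esm1 was found in few selected cells. Apln had a UMI in 9, 62, 462 and 35 of the selected cells from E12 to the adult, and Esm1 in 1, 8, 38 and 9. Both were found in 0, 2, 21 and 6 cells, so 21 of the 38 P2 cells and 6 of the 9 adult cells with Esm1 also had Apln. Apln helped choose the cells, and 44.3% of all selected P2 cells and 34.3% of the adult ones held it. Among gated cells Apln was in 33 of 91 P2 and 12 of 120 adult cells with Esm1, and in 866 of 3751 and 136 of 4030 cells in total. In the adult 17.1% of the selected cells with an Apln UMI had one of Esm1, against 4.48% of those without, at median depths of 3212 and 1949 UMIs, so depth differed in the same direction. The cells without Apln include the 17 with mural markers. Dll4 was found in 11 of the 35 adult cells with an Apln UMI, or 31.4%, and in 5.97% of those without, a comparison with the same depths and the same 17 cells. The 35 kept adult cells with an Apln UMI held Ptp4a3 at 953 CPM and Pcdh17 at 399 CPM, and the 50 without held them at 1435 and 509 CPM, as the rule favours, since cells without Apln can meet it only through the other genes of the set. Of all gated adult cells 23 had a Kcne3 UMI, and 4 of these (17.4%) had one of Apln, against 3.29% of those without Kcne3, at median depths of 2298 and 1476 UMIs. Those 4 were the selected adult cells with Kcne3, in which the rule, by asking for 2 UMIs of the set, favours both. Wt1, listed as an epicardial marker, was at 86.2 CPM at E15 and 134 CPM at P2 in the selected cells and at 67.0 and 111 CPM in the other gated cells, while Msln, Krt8 and Aldh1a2 had no UMI in the selected cells.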
